A study of Homo sapiens with 17 samples.

Results

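Transcript levels of 34 genes of cholesterol and fatty acid synthesis and their control were followed in NKYS cells, an established line of natural killer/T-cell lymphoma grown with interleukin-2. The list was drawn by function, with earlier results of these data known. It holds 18 enzymes of the sterol pathway, 6 SREBP regulators or sterol transport genes, 7 fatty acid enzymes and 3 genes under LXR control. A probe set with 1 gene symbol measured 32 of the 34, out of 18377 genes measured in all. Expression of FDFT1 and HSD17B7 is not analysed here. SC5D, at 22.8 to 24.3, and ELOVL6, at 22.3 to 28.1, lay near the floor of signal on all 17 arrays and were left out of the tests as low, so that 30 genes were tested.

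Cells build cholesterol from acetyl-CoA through the mevalonate pathway, and fatty acids from the same precursor. The transcription factor SREBP-2, encoded by SREBF2, drives the cholesterol enzymes, and SREBP-1, encoded by SREBF1, drives mainly the fatty acid enzymes. SCAP carries both factors out of the endoplasmic reticulum when sterols are low, and INSIG1 and INSIG2 hold SCAP back when sterols are plentiful. Oxysterols activate the LXR receptors, which induce the exporters ABCA1 and ABCG1 and the ubiquitin ligase MYLIP. Dividing lymphocytes use these pathways to make membrane.

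The study changed JAK3, the kinase of cytokine receptors that share the common gamma chain, and EZH2, the methyltransferase that places the repressive mark on lysine 27 of histone H3. In the JAK3 arm, 2 arrays carried JAK3 siRNA and 2 carried control siRNA, and in the EZH2 arm each of 2 EZH2 siRNA arrays had its own control siRNA array. On the plasmid arrays the cells received an empty vector (2 arrays), wild-type EZH2 (2 arrays), EZH2 Y244D or Y244A (2 arrays each, by title), in which the tyrosine Y244 is replaced by aspartate or alanine, or EZH2 lacking the SET domain that holds the catalytic site (1 array). No cells without transfection were analysed here, and all groups are transient transfections of 1 line. On the set 2 arrays with full-length EZH2 the titles and the transfection fields name different constructs, so that the allele there is unsettled. All cells grew in medium with 10% serum and 100 IU/mL interleukin-2 and were electroporated. Nothing in the labels tells whether replicate arrays stem from separate cultures; p-values therefore cover only the scatter among the arrays at hand, which could be technical. In bulk RNA, fewer cells of a kind and less RNA per cell cannot be told apart.

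Signals on all arrays ran from 19.4 to 15690, and no array repeated another. JAK3 signal was 138 and 137 with JAK3 siRNA against 322 and 326 with control siRNA. EZH2 signal was 501 and 489 with EZH2 siRNA against 926 and 691 on the paired controls, and 803 to 2221 with full-length EZH2 against 259 and 349 with vector. The SET deletion array had an EZH2 signal of 1471. Of 13 natural killer markers, PRF1 (1641 to 3633), GZMB (1069 to 5473), NKG7 (433 to 1701) and IL2RB (230 to 721) gave the highest signals, and CD7, NCAM1, KLRD1, KLRC1 and TYROBP lay between 54.2 and 318. The other 4 were low on all arrays, with GNLY at 45.2 to 68.1 and CD2, FCER1G and GZMA at 27.5 to 40.7. In the T-cell list CD3D and CD3G stayed between 29.9 and 41.9, while CD4 ran from 210 to 420 and CD8A, CD8B and CD5 from 45.1 to 94.7. The interquartile range of log2 values within an array was 2.265 to 2.330 in the siRNA experiment and 1.790 to 2.183 in the plasmid experiment. Numbers in the text are linear signals as deposited, or differences of log2 signal, in which 1 is a doubling.

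SREBP factors bind near the start sites of their targets. A table of RefSeq promoters on GRCh38.p14 matched 29 of the 34 genes, and the 250 bases before each start were searched on both strands for the sterol regulatory element TCACNCCAC, bound by SREBP, and for CCAAT, bound by the partner factor NF-Y. SREBF2 alone among the 29 held the element in these letters, which 1.09% of all 27305 genes hold. CCAAT stood before 13 of 15 sterol enzyme genes (86.7%) and 3 of 6 fatty acid genes, against 37.0% of all genes. These 15 include HSD17B7 and SC5D but not ACAT2, SQLE or FDFT1, so they are not the 15 sterol enzymes tested below. The 6 include ELOVL6 but not FASN. A match here is a description of letters and not a site of binding. The 4 promoters shown belong to the SREBP-2 gene itself and to MSMO1, INSIG1 and EBP, and all 4 hold a match. ABCA1, CYP51A1, PMVK, FADS1, FADS2, INSIG2, SREBF1, SCAP and ELOVL6 held neither motif and are not shown. In all, CCAAT stood before 20 of the 29 genes (69.0%). ACAT2, SQLE, FASN, ABCG1 and FDFT1 had no promoter in that table. Capitals mark TCACNCCAC, or CCAAT and its reverse complement ATTGG. The 4 promoters are all on the plus strand, 5′ to 3′.
SREBF2, chr22:41832855-41833104: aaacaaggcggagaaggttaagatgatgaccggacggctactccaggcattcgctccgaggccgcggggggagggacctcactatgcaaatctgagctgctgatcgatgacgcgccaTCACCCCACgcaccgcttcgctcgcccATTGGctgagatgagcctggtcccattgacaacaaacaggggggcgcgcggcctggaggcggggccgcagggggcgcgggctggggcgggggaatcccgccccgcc
MSMO1, chr4:165327419-165327668: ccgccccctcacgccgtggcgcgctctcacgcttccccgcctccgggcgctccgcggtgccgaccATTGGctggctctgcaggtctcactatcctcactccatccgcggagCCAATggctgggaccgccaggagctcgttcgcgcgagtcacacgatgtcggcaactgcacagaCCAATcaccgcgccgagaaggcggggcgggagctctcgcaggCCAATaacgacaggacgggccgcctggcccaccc
INSIG1, chr7:155297628-155297877: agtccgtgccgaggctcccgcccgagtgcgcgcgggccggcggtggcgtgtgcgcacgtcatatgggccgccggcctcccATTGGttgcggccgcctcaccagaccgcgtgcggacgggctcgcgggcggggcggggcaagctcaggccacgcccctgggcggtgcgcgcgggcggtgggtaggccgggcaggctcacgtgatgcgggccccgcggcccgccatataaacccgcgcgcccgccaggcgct
EBP, chrX:48521558-48521807: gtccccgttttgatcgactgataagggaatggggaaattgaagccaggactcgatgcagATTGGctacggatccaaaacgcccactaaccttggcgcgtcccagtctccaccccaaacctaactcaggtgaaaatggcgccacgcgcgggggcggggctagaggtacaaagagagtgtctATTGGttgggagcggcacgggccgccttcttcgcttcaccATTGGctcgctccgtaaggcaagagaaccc
MSMO1 held 4 matches to CCAAT and EBP held 3, while INSIG1 and SREBF2 held 1 each.

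**Figure D1:**
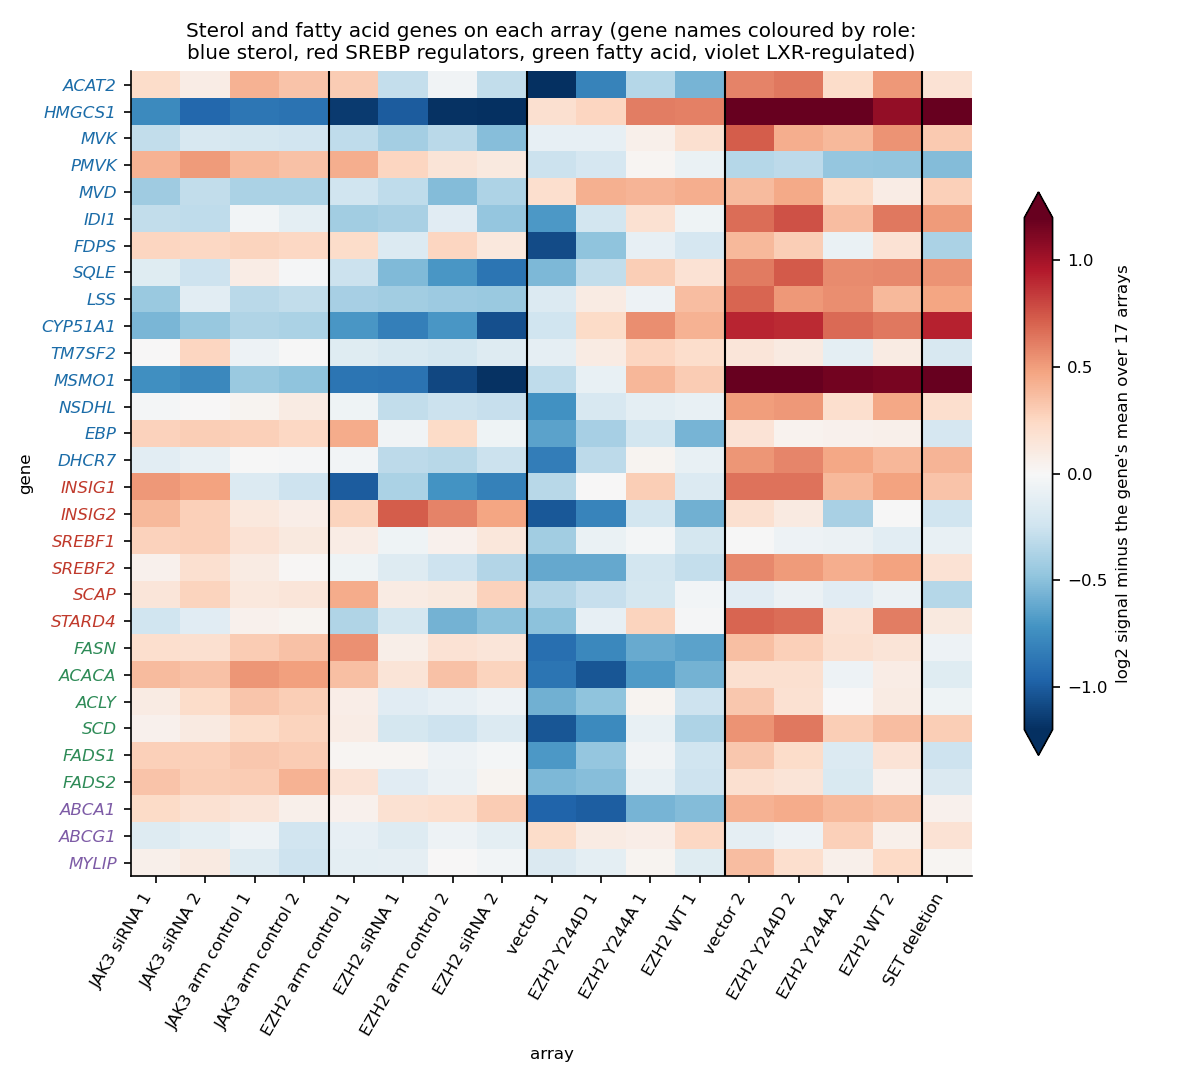
Colour gives the log2 signal of each of the 30 tested genes (rows) on each of the 17 arrays (columns) minus the gene's mean over the 17 arrays, with gene names coloured by role and vertical lines between the JAK3 arm, the EZH2 arm, plasmid set 1, plasmid set 2 and the SET deletion. The set 1 and set 2 columns differ for most sterol and fatty acid enzymes, while the siRNA and control columns of an arm look alike except for single genes such as INSIG1.

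With JAK3 siRNA 1 of the 30 genes rose, INSIG1, and 0 fell. INSIG1, the sterol-sensing anchor that keeps SCAP in the endoplasmic reticulum, read 1563 and 1526 with JAK3 siRNA against 974 and 919 with control siRNA. All arrays of this arm, controls included, lay above the 546 to 841 of the EZH2 arm, and both siRNA arrays lay above both controls. The log2 difference was 0.71 with a standard error of 0.12 and an adjusted p of 0.0143 (limma, Benjamini-Hochberg over 14466 genes, as for all adjusted p-values of the siRNA arms). Over all genes tested, 1.38% passed, 0.622% higher and 0.76% lower, so that 1 of 30 is near the background. INSIG1 is known as a target of SREBP-2.

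Of the 15 sterol enzymes, 0 passed and 9 had values below 0, as did 7847 of all 14466 genes. MSMO1, which removes the C4 methyl groups of the sterol ring, read 269 and 262 against 328 and 320. Its groups did not overlap, and the log2 difference of -0.29 did not pass (standard error 0.07, adjusted p = 0.0820). MYLIP, which sends lipoprotein receptors to degradation, read 126 and 129 against 108 and 101. Its log2 difference was 0.29 (standard error 0.07, adjusted p = 0.0832), also without overlap. How many of all genes had no overlap in this arm was not counted. STARD4, a carrier of cholesterol between membranes, read 134 and 144 against 163 and 161, with a log2 difference of -0.23 (standard error 0.07, adjusted p = 0.182).

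At an unadjusted p under 0.05, 7 of 30 genes differed (23.3%) against 12.4% of all genes. INSIG1 and MYLIP were higher, as were 5.39% of all genes, and MSMO1, STARD4, ACAT2, IDI1 and SQLE were lower, as were 7.02% of all genes. ACAT2 makes acetoacetyl-CoA in the cytosol, IDI1 makes dimethylallyl diphosphate, and SQLE, squalene epoxidase, is a control point of the sterol branch. The log2 differences of these last 3 genes were -0.22, -0.23 and -0.23. The median over the 30 genes was -0.0125, against -0.0103 over all genes. All 6 fatty acid enzymes had values below 0, from -0.16 for SCD, the desaturase that makes oleate, to -0.03 for FADS1, and 0 passed; all 6 were also below 0 with quantile normalization and with median centring, while the median over the 30 genes was 0.0049 with quantile normalization. Of the SREBP regulators, 5 of 6 lay above 0, against 45.7% of all genes, with SREBF1 at 0.13 and INSIG2 at 0.24, neither past the test.

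The INSIG1 call did not pass without a filter on low signal, with trend and robust fitting, with array numbers as a block, or without any 1 of the 4 arrays of the JAK3 arm. Over all 17 alternatives its log2 difference stayed between 0.67 and 0.75, with adjusted p-values from 0.000235 to 0.157.

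**Figure D2:**
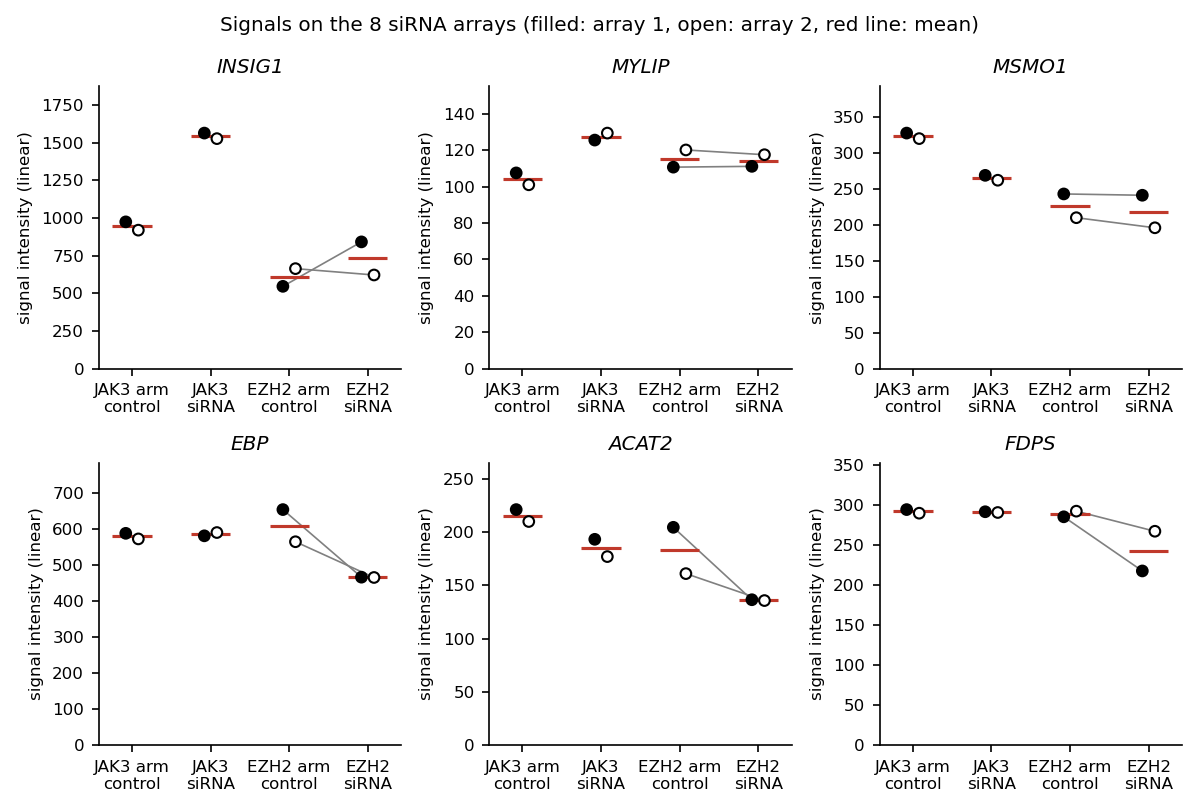
Linear signal of 6 genes on the 8 siRNA arrays, with filled points for array 1, open points for array 2, red lines at the mean of each group, grey lines joining the pairs of the EZH2 arm, and each axis starting at 0. INSIG1 with JAK3 siRNA lies at 1563 and 1526, above the 6 other arrays, and EBP with EZH2 siRNA lies at 466 on both arrays, below its 2 paired controls.

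With EZH2 siRNA 1 of the 30 genes fell, EBP, and 0 rose. EBP, the sterol isomerase that shifts the ring double bond late in the pathway, read 654 and 565 on the controls and 466 on both paired EZH2 siRNA arrays. It was lower in both pairs, by -0.49 and -0.28 on the log2 scale, and the EZH2 siRNA arrays lay below the 573 to 590 of the JAK3 arm as well. The fitted difference was -0.38 (standard error 0.08, adjusted p = 0.0444). The background was 0.94% of all genes, 0.373% higher and 0.567% lower. That split of 54 genes higher and 82 lower became 31 and 161 with each array centred on its median, and 30 and 26 with quantile normalization.

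ACAT2, the first enzyme of the mevalonate pathway, read 205 and 161 on the controls against 137 and 136. Its log2 difference of -0.42 (standard error 0.09) had an adjusted p of 0.0501, just above the threshold of 0.05, and is not counted. FDPS, which makes farnesyl diphosphate at the branch to isoprenoids, read 285 and 292 against 218 and 267, a log2 difference of -0.26 (standard error 0.08, adjusted p = 0.129). CYP51A1, the lanosterol demethylase, read 216 on both controls against 198 and 169, a difference of -0.24 (standard error 0.08, adjusted p = 0.156). In these 3 genes, picked by small p, both EZH2 siRNA arrays lay below both controls. How many of all genes did so was not counted.

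In all, 22 of 30 genes had values below 0 after EZH2 siRNA, against 7498 of all 14466 genes. The median over the 30 was -0.097, against -0.0042 over all genes. Of the 15 sterol enzymes 12 lay below 0, as did 12 with quantile normalization and 13 with median centring. At an unadjusted p under 0.05, 6 of 30 were lower and 0 higher, that is 20.0%, against 15.6% of all genes, 5.47% higher and 10.1% lower. Those 6 were EBP, ACAT2, FDPS, CYP51A1, SQLE and FASN. FASN, the fatty acid synthase, read 492 and 379 against 354 and 372, so that its pairs differed by -0.48 and -0.02. The pairs had opposite signs for INSIG1, at 0.62 in pair 1 and -0.09 in pair 2. The median over the 30 genes was -0.11 in pair 1 and -0.03 in pair 2, against -0.03 and 0.01 over the 14410 genes of the plasmid fits. Below 0 in both pairs were 14 of the 30, against 4062 of those 14410.

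EBP did not pass in 11 of 17 alternatives, among them quantile normalization, no filter, array weights, no pair block, the 4 arrays of the arm alone, and the fits without either array of pair 1 or any 1 array of the JAK3 arm. Its difference ran from -0.49 to -0.28 over all 17, with adjusted p-values from 0.00761 to 0.317. Without either array of pair 2, which leaves 1 pair, the EBP difference was -0.49, and without either array of pair 1 it was -0.28.

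**Figure D3:**
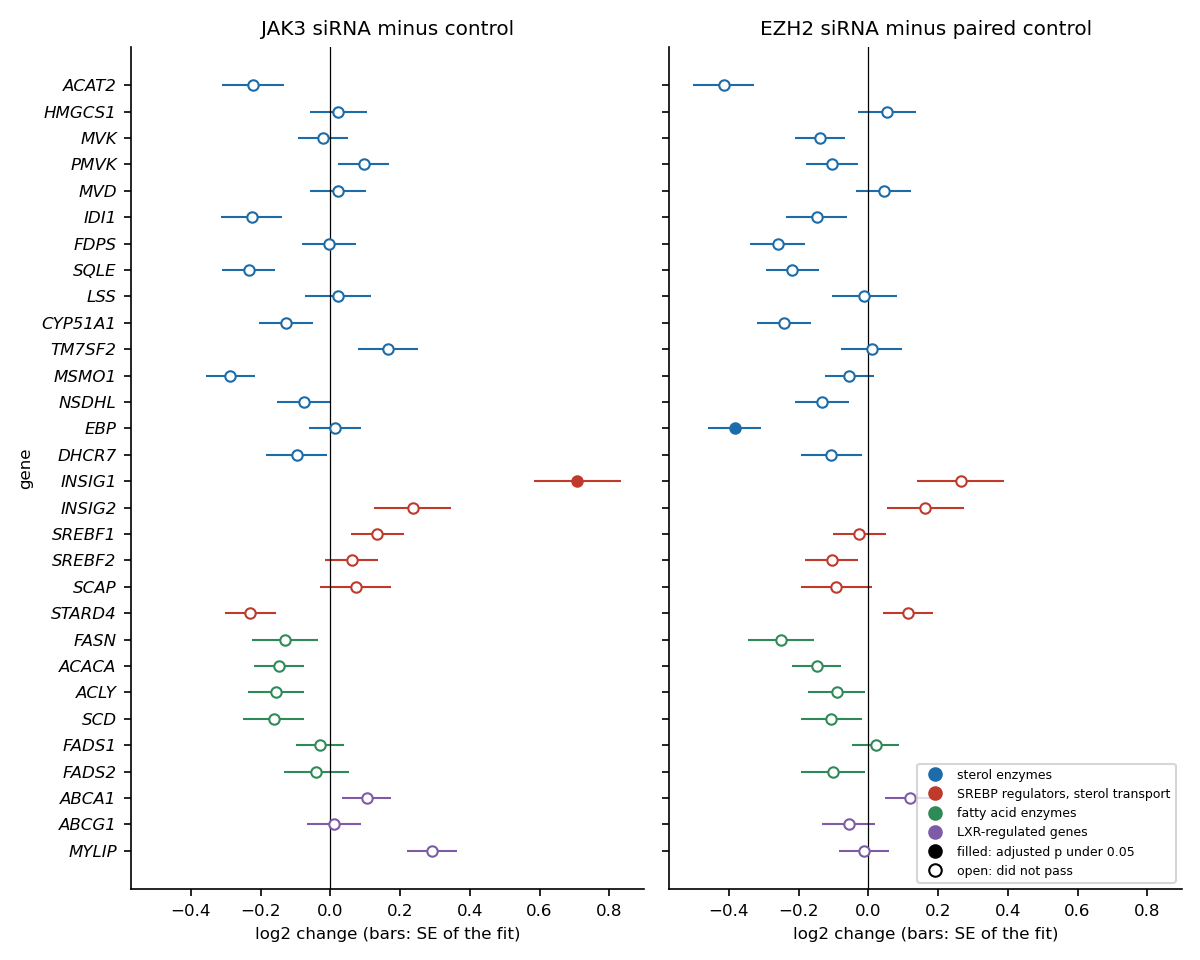
Log2 difference of each tested gene (rows, coloured by role) after JAK3 siRNA (left) and EZH2 siRNA (right), with bars for the standard error of the fit and filled points for an adjusted p under 0.05. INSIG1 at 0.71 on the left and EBP at -0.38 on the right are the 2 filled points.

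The effects of the siRNAs were compared in the same fit. The JAK3 effect minus the EZH2 effect passed for 0 of 30 genes, with a background of 0.366%, 0.138% higher and 0.228% lower. The split over all genes was 20 higher and 33 lower, and 19 and 19 with median centring. EBP had the smallest p, with a difference of 0.40 (standard error 0.11, adjusted p = 0.202). STARD4 followed at -0.34 (standard error 0.10, adjusted p = 0.279), then MYLIP at 0.30 (standard error 0.10, adjusted p = 0.366) and INSIG1 at 0.44 (standard error 0.18, adjusted p = 0.507). Without either array of EZH2 pair 1 the INSIG1 difference was 0.80, and without either array of pair 2 it was 0.08. At an unadjusted p under 0.05, 6 of 30 genes differed, 4 higher and 2 lower, against 8.14% of all genes, 4.27% higher and 3.86% lower. That INSIG1 passed in the JAK3 arm and EBP in the EZH2 arm therefore does not show that either gene answered only 1 siRNA.

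The control siRNA arrays of the arms themselves differed. Both controls of the JAK3 arm lay above both controls of the EZH2 arm for 20 of 30 genes, which 24.9% of all genes also did. They lay below for INSIG2 and MYLIP, a pattern of 17.7% of all genes. INSIG1 controls were 974 and 919 in the JAK3 arm against 546 and 663 in the EZH2 arm, and MSMO1 controls 328 and 320 against 243 and 210. Levels across arms were therefore set side by side and not tested.

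Few genes next to these pathways passed after either siRNA, against 1.38% of all genes in the JAK3 arm and 0.94% in the EZH2 arm. In the JAK3 arm 1 of 14 genes of fatty acid oxidation rose, CPT2, a carnitine palmitoyltransferase of the inner mitochondrial membrane, at 173 and 184 against 144 and 139 (log2 difference 0.34, standard error 0.07, adjusted p = 0.0423). In the EZH2 arm 1 of 14 genes of sterol handling rose, NPC2, the carrier of cholesterol out of lysosomes. NPC2 read 1327 and 1169 with EZH2 siRNA against 695 and 902, a log2 difference of 0.65 (standard error 0.11, adjusted p = 0.0275). The 12 genes of the isoprenoid branch and the 13 of fatty acid supply had 0 calls in both arms, with 4 and 3 of the former and 1 and 0 of the latter at an unadjusted p under 0.05, against 12.4% and 15.6% of all genes. Of the 11 tested natural killer markers, KLRD1 and NCAM1 fell with JAK3 siRNA, by 0.47 and 0.36 on the log2 scale (adjusted p = 0.00991 and 0.0298), and 0 passed with EZH2 siRNA, where PRF1 stood at 0.47 (adjusted p = 0.0501).

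The plasmid arrays carry numbers 1 and 2 in their titles, each with 1 vector array and 3 full-length EZH2 arrays, called set 1 and set 2 here (the wild-type array without a number was taken as set 2). The sources do not tell what the number marks. Set 2 had higher signal than set 1 for 24 of the 30 genes, and lower signal for 0, at an adjusted p under 0.05 with vector or full-length EZH2 as a covariate (limma, Benjamini-Hochberg over 14410 genes, as for all plasmid comparisons). Of all genes, 21.8% were higher and 12.7% lower, 34.5% in all. At an unadjusted p under 0.05, 25 of the 30 differed, against 51.5% of all genes. The median difference was 0.61 over the 30 genes and -0.02 over all genes. Higher were 12 of 15 sterol enzymes, 4 of 6 SREBP regulators or transport genes, all 6 fatty acid enzymes and 2 of 3 LXR genes.

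Of the sterol enzymes, ACAT2 differed most, at 72.7 (vector), 95.6 (Y244D), 131 (Y244A) and 113 (wild type) in set 1 against 251, 257, 193 and 239 in set 2 by title in the same order, a log2 difference of 1.21 (standard error 0.17, adjusted p = 0.00137). HMGCS1, which joins acetoacetyl-CoA with acetyl-CoA, read 327, 342, 437 and 436 against 693, 727, 743 and 596 in that order, a difference of 0.85 (standard error 0.13, adjusted p = 0.00216). MSMO1 read 361, 421, 591 and 551 against 1112, 1116, 995 and 983, a difference of 1.15 (standard error 0.15, adjusted p = 0.00108). In each of these 3 genes the lowest set 2 array lay above the highest set 1 array, and the set 1 vector was the lowest array of all.

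SREBF2, the gene of SREBP-2, read 195, 196, 256 and 246 in set 1 against 447, 427, 404 and 419 in set 2, a log2 difference of 0.94 (standard error 0.12, adjusted p = 0.00103). The sets were apart by more than the spread within either. SREBF1, by contrast, overlapped between the sets, with 116 to 152 against 142 to 154, and its difference of 0.12 did not pass (standard error 0.11, adjusted p = 0.363). SCAP overlapped too, with 175 to 217 against 202 to 212 (0.11, standard error 0.10, adjusted p = 0.351). The signs of both turned under 1 other scaling each, SREBF1 to -0.02 with the interquartile range in the fit and SCAP to -0.10 with quantile normalization.

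Among fatty acid enzymes, FASN read 180, 196, 221 and 215 against 431, 410, 383 and 373, a log2 difference of 0.98 (standard error 0.11, adjusted p = 0.000506). ACACA, the acetyl-CoA carboxylase that makes malonyl-CoA, read 81.1, 72.9, 93.0 and 101 against 170, 170, 143 and 158 (0.89, standard error 0.13, adjusted p = 0.00162). SCD read 279, 335, 533 and 440 against 824, 879, 696 and 734 (1.02, standard error 0.18, adjusted p = 0.00376). None of the 3 overlapped between the sets. ABCA1, the LXR-induced cholesterol exporter, read 195, 191, 257 and 265 against 509, 517, 497 and 488 (1.16, standard error 0.13, adjusted p = 0.000498). ABCG1, the other exporter under LXR control, overlapped between the sets and did not pass, at 48.7 to 54.7 against 42.6 to 56.0 (-0.12, standard error 0.11, adjusted p = 0.385), and stood at 0.08 with the interquartile range in the fit.

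The 16 other genes that were higher in set 2 had log2 differences from 0.32 for MYLIP to 0.80 for IDI1. Upstream in the mevalonate pathway, MVK, mevalonate kinase, spanned 85.7 to 105 in set 1 and 121 to 152 in set 2 (0.51), IDI1 spanned 239 to 438 and 496 to 653, and FDPS spanned 116 to 228 and 232 to 320 (0.66). On the sterol side, SQLE spanned 320 to 569 and 689 to 772 (0.72), LSS, which closes the sterol ring, 76.0 to 110 and 111 to 138 (0.48), and CYP51A1 296 to 517 and 542 to 660 (0.54). NSDHL, the sterol dehydrogenase that works with MSMO1, spanned 110 to 172 and 209 to 262 (0.70), EBP 308 to 414 and 497 to 538 (0.53), and DHCR7, the last reductase of the pathway, 186 to 337 and 434 to 496 (0.79). These 9 enzymes had no overlap between the sets.

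INSIG1 spanned 868 to 1337 in set 1 and 1428 to 1715 in set 2 (0.59), also without overlap. INSIG2 spanned 82.0 to 142 and 127 to 190 (0.63), and STARD4 112 to 190 and 178 to 256 (0.62). ACLY, which makes cytosolic acetyl-CoA from citrate, spanned 640 to 976 and 960 to 1198 (0.47). The desaturases of polyunsaturated fatty acids, FADS1 at 242 to 379 against 349 to 489 (0.50) and FADS2 at 227 to 310 against 291 to 378 (0.40), also passed. In INSIG2, STARD4, ACLY, FADS1 and FADS2 the sets overlapped. MYLIP spanned 107 to 123 and 125 to 155 and did not overlap.

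Of the 15 sterol enzymes 3 did not pass. MVD, the decarboxylase that makes isopentenyl diphosphate, spanned 172 to 201 and 159 to 205 (-0.08, or 0.02 with median centring and -0.27 with quantile normalization), and TM7SF2, a sterol reductase, spanned 163 to 210 and 163 to 195 (-0.05, or 0.04 with median centring). PMVK, phosphomevalonate kinase, was the only one of the 30 genes with all set 2 arrays below all set 1 arrays, at 169 to 188 against 196 to 239 (-0.27, standard error 0.11, adjusted p = 0.0662). Counted this way, 19 of 30 genes were higher in set 2 without overlap and 1 lower, against 16.3% and 14.9% of all genes.

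**Figure D4:**
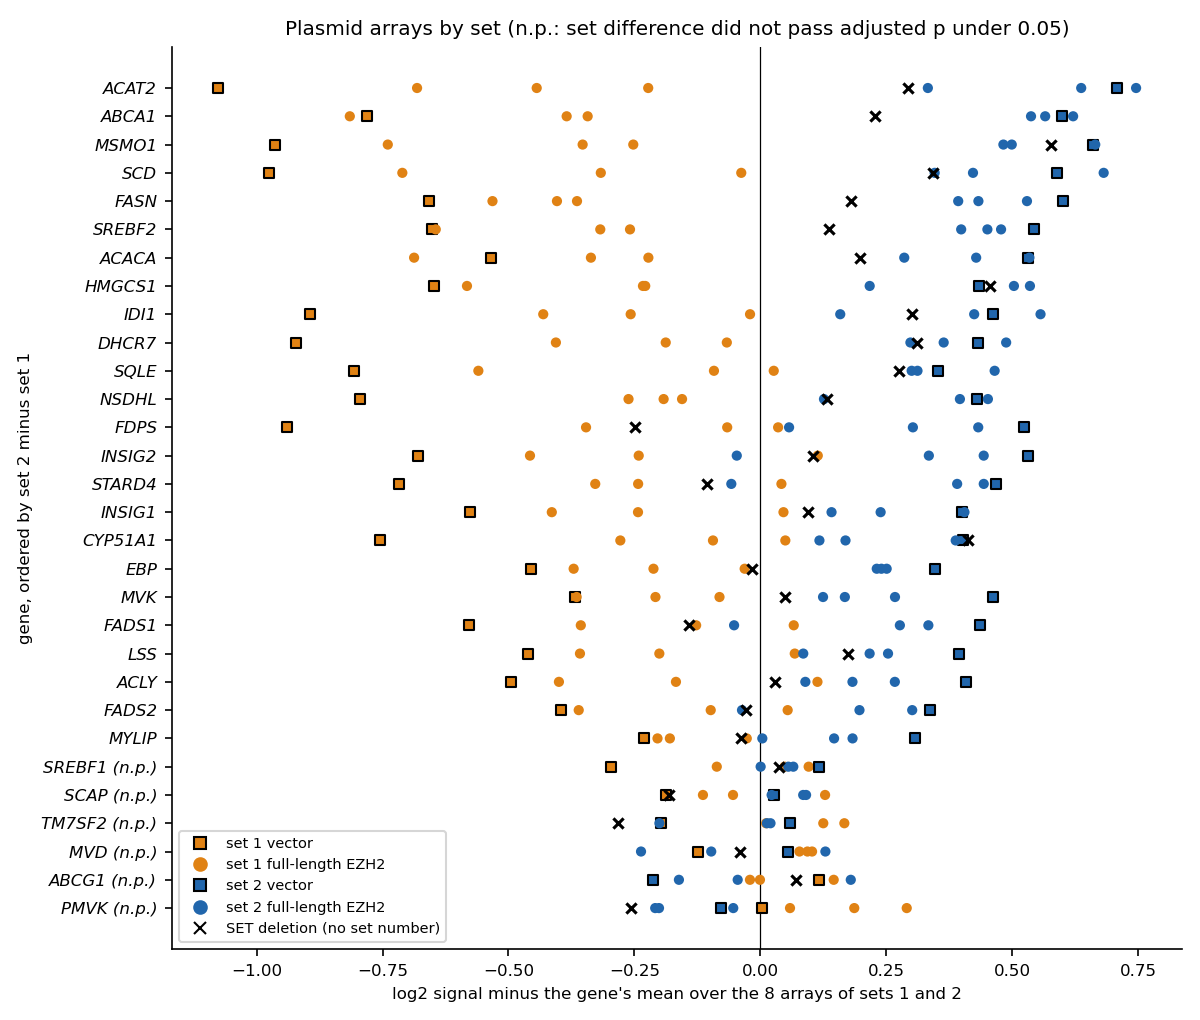
Log2 signal of each tested gene (rows, ordered by the set difference) on the plasmid arrays minus the gene's mean over the 8 arrays of sets 1 and 2, in orange for set 1 and blue for set 2, with squares for vector, circles for full-length EZH2 and crosses for the SET deletion array. Genes from ACAT2 (difference 1.21) down to SQLE (0.72) have orange left of blue without overlap, and the 6 genes marked n.p. did not pass.

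The spread of signal and markers of other cells also differed between the sets, where 21.8% of all genes were higher and 12.7% lower. The interquartile range of log2 signal was 1.790 to 2.034 in set 1 and 1.986 to 2.183 in set 2. The summed signal of 8 epithelial and fibroblast markers was 689 to 1051 in set 1 and 589 to 779 in set 2, with EPCAM at 29.4 to 37.6 near the floor throughout, and 1 of the 6 tested fell (KRT8, by 0.53). The summed signal of 5 monocyte markers was 437 to 449 against 371 to 421, and 3 of the 4 tested fell, CD68, CD14 and FCN1. The other tested gene, CSF1R, lay higher in set 2, at 98.2 to 124 in set 1 against 127 to 145, and did not pass. Of 4 tested genes of the T-cell list 1 fell, and of 3 tested B-cell markers 0. The summed signal of 6 hepatocyte and adipocyte markers was 452 to 522 in set 1 and 478 to 544 in set 2, and of the 4 tested ALB rose by 0.61 and PLIN1 fell by 0.30 (adjusted p = 0.0437 and 0.0351). The 13 natural killer markers summed to 5486 to 7039 in set 1 and 4869 to 5346 in set 2, and moved both ways: of the 10 tested, GZMB fell by 1.04 and TYROBP by 0.34, and KLRC1 rose by 0.83. How much of the set difference goes with the marker signals was not tested, and a fit with the interquartile range is given below. With quantile normalization 18 of the 30 genes were higher and 2 lower (PMVK at -0.47 and TM7SF2 at -0.25), against 17.5% of all genes higher and 13.7% lower under that setting, with 9 of 15 sterol enzymes and 3 of 6 fatty acid enzymes higher. With that interquartile range entered into the fit, a choice made after the values were seen, 8 were higher and 1, PMVK, lower, against 5.51% and 5.48% of all genes, and the median difference was 0.27; FADS1 then turned to -0.0076.

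Over all genes the split was 3140 higher and 1826 lower, which became 3024 and 782 with each array centred on its median, and 794 and 789 with the interquartile range in the fit. The 8 genes ABCA1, ACACA, ACAT2, FASN, HMGCS1, MSMO1, SCD and SREBF2 passed as higher in all 18 alternatives. Without the vector of either set 13 genes passed, without the Y244D array of set 1 15, and without that of set 2 14. Over all genes, leaving out 1 array gave 1680 to 8353 calls, against 4966 with all arrays. The share of all genes in each of these fits is not given here, so the counts have no matching background.

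Of 4 neighbouring lists, 3 had a larger share of genes higher in set 2 than the 21.8% of all genes. In fatty acid supply 9 of 13 rose (69.2%), led by ELOVL1, an elongase (0.83, adjusted p = 0.00715), ACSS2, which makes acetyl-CoA from acetate (0.66, adjusted p = 0.0103), and ACSL5, an acyl-CoA synthetase (0.70, adjusted p = 0.0160). In the isoprenoid branch 6 of 11 rose (54.5%), with DHDDS of dolichol synthesis at 0.62 (adjusted p = 0.00678). In sterol handling 6 of 14 rose (42.9%), with the phospholipid acyltransferase LPCAT3 at 0.84 (adjusted p = 0.00773) and SOAT1, which esterifies cholesterol, at 0.73 (adjusted p = 0.0195). In fatty acid oxidation 2 of 14 rose (14.3%, a smaller share than over all genes), ETFDH at 0.76 and ETFA at 0.65 (adjusted p = 0.0245 and 0.0349). In these 4 lists 0 genes fell, against 12.7% of all genes.

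Against vector, the 6 full-length EZH2 arrays showed 0 of 30 genes past the test, and 0 at an unadjusted p under 0.05. Of all 14410 genes 0 passed (0%), and 10 (0.0694%) had an unadjusted p under 0.05, 0.0416% higher and 0.0278% lower. The genes with the smallest p were DHCR7, SQLE, CYP51A1 and FDPS. DHCR7 read 186 and 477 on the vector arrays of sets 1 and 2 and 267, 337, 310, 496, 455 and 434 with full-length EZH2 (log2 difference 0.33, standard error 0.34). SQLE read 320 and 714 on vector and 379 to 772, with a median of 629, on the 6 arrays with EZH2 (0.30, standard error 0.33). CYP51A1 read 296 and 660 on vector against 412, 517, 468, 653, 561 and 542 (0.24, standard error 0.28), and FDPS 116 and 320 against 175, 228, 213, 301, 232 and 275 (0.28, standard error 0.33). Each of the 4 had an adjusted p of 1. In all 4 the full-length arrays lay between the vectors or, for DHCR7 and SQLE, above them on 1 array.

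The vectors differed from each other more than the means of the full-length arrays of the sets did. The set 2 vector exceeded the set 1 vector by a median of 1.07 on the log2 scale over the 30 genes. The mean of the 3 full-length arrays of set 2 exceeded that of set 1 by 0.44. Over all genes these medians were 0.05 and -0.04. The first value compares single arrays and the second means of 3, so they are unlike measures. The median difference of full-length EZH2 from vector was 0.10 over the 30 genes, against 0.01 over all genes. Of the 30 genes 28 lay above 0 (26 with quantile normalization), against 53.6% of all genes. Without the set 1 vector the median over the 30 genes was -0.39, and without the set 2 vector it was 0.64. These fits had no term for the set. Each compared a lone vector with full-length arrays of both sets, so that the set difference enters both values.

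Within set 1, all 3 full-length arrays lay above the vector for 27 of 30 genes, among them all 15 sterol enzymes, against 37% of all genes. The median difference there was 0.31, against 0.04 over all genes. Within set 2, all 3 lay below the vector for 15 of 30 genes, against 31.9% of all genes, and above it for 1, ABCG1. The median there was -0.12, against -0.04 over all genes. FDPS was 0.81 above vector in set 1 and -0.26 in set 2. For the SREBP regulator INSIG2 these values were 0.48 and -0.29. Neighbouring lists went the same way in set 1, with all 3 arrays above the vector for 12 of 13 genes of fatty acid supply. The counts were 11 of 14 in sterol handling, 8 of 11 in the isoprenoid branch and 8 of 14 in fatty acid oxidation. In set 1 the vector had the lowest interquartile range, 1.790 against 1.852 to 2.034. In set 2 it had the highest, 2.183 against 1.986 to 2.138. How far the within-set differences go with this range was not tested.

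The difference between the sets in the effect of full-length EZH2, a comparison added after the values were seen, passed for 0 of 30 genes and 0 of all genes (0%). At an unadjusted p under 0.05, 9 of 30 differed, all lower in set 2, against 12.2% of all genes, 2.22% higher and 10% lower. Of the 30 genes 29 lay below 0 (27 with quantile normalization), against 8046 of all 14410 genes. The median over the 30 was -0.48, against -0.08 over all genes. The neighbouring lists lay alike. Below 0 were all 13 genes of fatty acid supply (median -0.66), all 11 of the isoprenoid branch (-0.38), and 12 of 14 each of fatty acid oxidation (-0.54) and sterol handling (-0.51). The smallest p-values belonged to FDPS at -1.07 (standard error 0.29), CYP51A1 at -0.82 (standard error 0.26), DHCR7 at -0.75 (standard error 0.26) and NSDHL at -0.70 (standard error 0.25), each with an adjusted p of 0.400. With 1 vector array in each set, this rests on the spread of the full-length arrays alone.

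**Figure D5:**
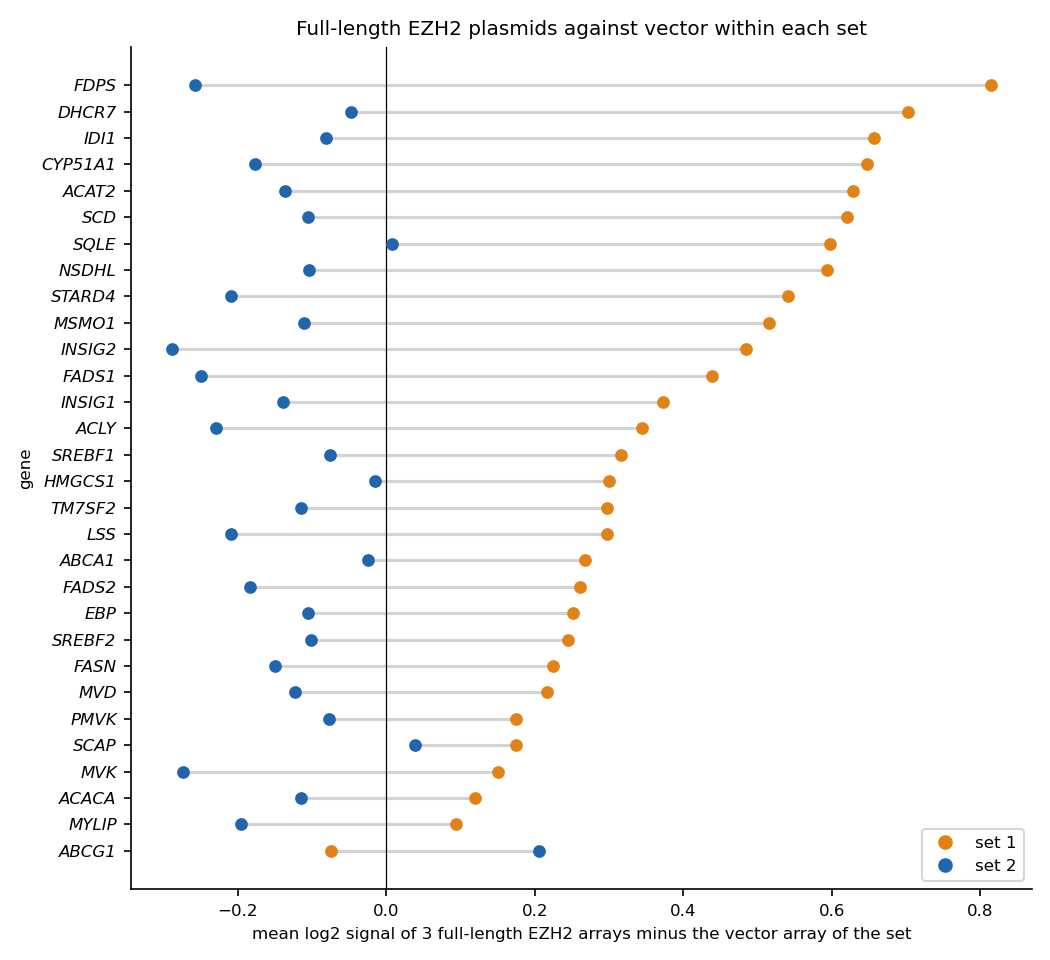
Mean log2 signal of the 3 full-length EZH2 arrays minus the vector array of the same set, for each tested gene (rows, ordered by set 1), in orange for set 1 and blue for set 2. Orange points lie right of 0 for all genes but ABCG1, up to 0.81 for FDPS, and blue points lie left of 0 for all but SQLE, SCAP and ABCG1; 0 of these genes passed a test of full-length EZH2 against vector.

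Y244D against Y244A, by title, passed for 0 of 30 genes and 0 of all genes (0%), and 0 of all genes had an unadjusted p under 0.05. The 4 genes with the smallest p were ABCG1, MVD, ACLY and SQLE. ABCG1 read 49.4 and 44.2 with Y244D against 48.7 and 56.0 with Y244A (log2 difference -0.16, standard error 0.23), and MVD 200 and 205 against 197 and 175 (0.12, standard error 0.22). ACLY read 684 and 1086 against 976 and 960 (-0.17, standard error 0.35), and SQLE 379 and 772 against 569 and 689 (-0.21, standard error 0.45). The alleles overlapped in ABCG1, ACLY and SQLE, and in MVD both Y244D arrays lay above both Y244A arrays, a pattern not counted over all genes. With the constructs read by the transfection field, ABCG1 turned to 0.12 and 0 genes passed. The standard errors over the 30 genes were 0.21 to 0.68. The plasmid set was not a term of this fit, nor of the fit of full-length EZH2 against vector, where the standard errors were 0.14 to 0.49. With the set as a replicate block they were 0.18 to 0.31 for the alleles and 0.12 to 0.22 for full-length EZH2. With that block 0 of 30 genes passed in either comparison, and 0 had an unadjusted p under 0.05, against 0.0694% of all genes for the alleles and 0.375% for full-length EZH2.

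The SET deletion was measured on 1 array, which has no set number, so that no test was made. A gene was counted where this array differed at least 1.5-fold from the mean of the vectors and lay beyond both. By this count 1 of 30 genes was higher, CYP51A1, and 0 were lower, against 0.229% of all genes higher and 1% lower. CYP51A1 read 664 with the SET deletion against 296 and 660 on the vectors, a log2 difference of 0.59 from their mean, and stood just above the set 2 vector. The other large differences were those of MSMO1, at 1049 against 361 and 1112 (0.73), HMGCS1, at 703 against 327 and 693 (0.56), and DHCR7, at 438 against 186 and 477 (0.56). Of these 4 genes CYP51A1 and HMGCS1 lay above both vectors, and MSMO1 and DHCR7 between them. On the 8 other plasmid arrays 27 of the 30 genes spanned a range that held the SET deletion array, as did 86% of all genes. CYP51A1 lay above all 8, against 3.03% of all genes, and PMVK at 164 and TM7SF2 at 154 lay below all 8, against 10.9%.

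For sterol genes other than FDPS and EBP this array sat closer to set 2 than to set 1. It lay above all 4 arrays of set 1 for 17 of 30 genes, 11 of them sterol enzymes, against 13% of all genes, and below all 4 for PMVK and TM7SF2, against 25.5%. It lay below all 4 arrays of set 2 for 18 of 30, against 44.8% of all genes, and above all 4 for CYP51A1, against 24.1%. MSMO1 was 1.15 above the set 1 mean on the log2 scale and level with the set 2 mean, and HMGCS1 was 0.88 above the set 1 mean and 0.03 above that of set 2. FDPS, at 187, lay nearer set 1, 0.08 above set 1 and 0.58 below set 2. Against the set 1 vector alone 18 genes were counted as higher, and against the set 2 vector alone 0 were higher and 1 lower, so that the choice of vector decides the count. Quantile normalization gave 3 genes, and centring on the median gave 0. Shares of all genes were not counted for the lone vectors or these scalings, so these counts have no background.

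Between the experiments, 5 sterol genes were higher on all 9 plasmid arrays than on all 8 siRNA arrays, namely HMGCS1, CYP51A1, MSMO1, MVD and MVK, against 10.2% of all genes. HMGCS1 ran from 123 to 169 on siRNA arrays and from 327 to 743 on plasmid arrays, and MSMO1 from 196 to 328 and from 361 to 1116. PMVK and SCAP were lower without overlap, against 20.5% of all genes; PMVK ran from 255 to 335 and from 164 to 239. The payload and the experiment cannot be told apart in this comparison.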

How the data were processed

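RNA of transfected NKYS cells was measured on 17 arrays and labelled with biotin from 100 ng of total RNA, per the labels. Signal intensity on a linear scale was deposited for 28869 probe sets; background correction, normalization and summary are not given in the sources used here. Values were used as deposited, after log2. Of the probe sets, 19310 have 1 gene symbol, and the one with the highest mean stood for each of 18377 genes. Genes under the 30th percentile of mean signal over the arrays of a fit were left out. With arrays, their number limits the precision.

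Tests used limma 3.58.1 in R 4.3.3, lmFit and eBayes, two-sided, with Benjamini-Hochberg adjustment over all genes of a fit and a threshold of 0.05; scripts were tested on simulated data. The 8 siRNA arrays formed 1 fit with 3 residual degrees of freedom. Titles in the EZH2 arm name the control that belongs to each siRNA array, and the pair was a block, although deviations within pairs correlated at only r = -0.086. The 8 vector and full-length arrays were fitted with 4 to 6 degrees of freedom. For set 2, titles give Y244D, Y244A and WT where the transfection fields give EZH2 WT, MtCA (read as Y244D) and Mt2 (read as Y244A); both readings were tested.

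Signals are given for members that passed, or, where fewer than 4 passed, for those with the smallest p up to 4, and genes of other lists are named where they passed, at most 3 a list. The members, the other lists and the sets were chosen with earlier results of these data known. Promoter letters are from RefSeq on GRCh38.p14. Alternatives were other normalizations, filters, probe rules, variance models, blocks and covariates, and leaving out each array.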

Additional observations from a re-analysis of the deposited data

Results flagged for a closer look

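Within each plasmid set of 4 arrays, 1 array stood far from the other 3 in 5 of 90 checks, made over the 30 genes in each set and over the 6 full-length arrays. Such a gap, measured as a share of the whole range, appears by chance in about 1 of 20 groups. The set 1 vector was the stray array for MVD, at a signal of 172 with the next at 197 (0.8897 of the range), and for NSDHL, at 110 with the next at 160 (0.834). The set 2 array titled Y244A was the stray array for NSDHL, at 209 with the next at 252 (0.8292), and for STARD4, at 178 with the next at 242 (0.8535). The set 2 vector was the stray array for EBP, at 538 with the next at 503 (0.8293).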

How the results depend on the processing

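The JAK3 siRNA comparison called 1 of 30 genes; it called 0 without a filter, with trend and robust fitting and with array numbers as a replicate block, and 3 with array weights or the 4 arrays of the arm alone. Leaving out 1 array gave 0 to 3. Numbers in this arm are shared without a stated pairing (r = 0.15), and 104 of all genes passed with the block against 200 without; over all genes the other counts that moved were 94 with no filter, 699 with array weights, 523 with the arm alone and 33 to 519 with 1 array left out. The EZH2 siRNA comparison called 1; it called 0 with quantile normalization, no filter, array weights or no replicate block, and 2 with median centring, the 50th percentile filter or trend and robust fitting. Leaving out 1 array gave 0 to 7. Over all genes 136 passed, against 56, 0, 0 and 20 under the first 4 settings, 230 with trend and robust fitting, 217 with the arm alone and 0 to 1511 with 1 array left out. The difference between the arms called 0, and 0 to 1 with 1 array left out; with the replicate block in both arms it called 0. Over all genes 53 passed, 15 with no filter, 19 with the block and 14 to 323 with 1 array left out.

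Set 2 against set 1 called 24 genes, 15 with the 4 constructs by title as covariate and 9 with the interquartile range as covariate, where FADS1 was at -0.0076 in place of 0.50; leaving out 1 array gave 13 to 24. Over all genes 4966 passed, 9530 with array weights, 1758 and 1583 with these covariates, and 1680 to 8353 with 1 array left out. The SET deletion count of 1 became 3 with quantile normalization and 0 with median centring, and ran from 1 to 18 with 1 vector left out. Shares of all genes under these settings were not counted. Full-length EZH2 against vector, the alleles under both readings, and the difference of the EZH2 effect between sets called 0 genes in every alternative run; for full-length EZH2 and the alleles these included the set as a replicate block. Deviations of the vectors correlated with those of Y244D, Y244A and wild type at r = 0.92, 0.01 and 0.85. Apart from the fits named, the causes of these moves were not tested. Fits with fewer arrays have fewer degrees of freedom, and a lone array was taken to vary like the rest. With 1 to 4 arrays a group, and SC5D and ELOVL6 near the floor, small changes were not detectable.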
